A study of Mus musculus with 12 samples.

Results

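This account covers the Runx transcription factors and their shared partner in developing mouse T cells. The members are the genes Runx1, Runx2, Runx3 and Cbfb, and the rule took all probe sets that the platform table gives one of these symbols. It found 9 probe sets for 3 of the 4 genes, out of 18193 genes named on the array: 6 for Runx1, 2 for Runx3 and 1 for Cbfb. No probe set in the table used here carries the symbol Runx2, so Runx2 is not analysed here.

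Thymocytes of wild-type (WT) mice and of IkL/L mice were sorted, and their RNA was measured on Affymetrix arrays. The series title calls the IkL/L cells Ikaros-deficient, and the labels do not describe the IkL allele further. Ikaros is a DNA-binding zinc-finger protein that is encoded by Ikzf1 and acts in lymphocyte development. Both genotypes were sampled at 3 stages: DN3 and DN4 cells, precursors without CD4 and CD8, and the DP cells that follow them, which display both of these co-receptors. Each of the 6 groups, WT and IkL/L DN3, DN4 and DP cells, held 2 arrays, 12 in all. Cells of 3 mice were combined for sorting, with no agent given, and age, strain and sex are not in the labels. The labels do not say that the 2 arrays of a group were made from different pools of mice. In IkL/L cells the Y-linked signal given below differed between the 2 arrays of each stage, so these arrays did not share a pool. The p values measure the spread between the arrays of a group, which may be technical in WT cells.

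Runx proteins bind DNA through a conserved Runt domain, and Cbfb, which does not bind DNA itself, joins each of them and strengthens that binding. Runx1 is needed for early thymocytes to pass through the DN stages and helps to silence Cd4 there. Runx3 acts later, in the CD8 lineage, where it holds Cd4 and the CD4-lineage factor gene Zbtb7b silent and supports cytotoxic genes. Runx2 is best known for bone formation. Runx1 and Runx3 are each transcribed from an upstream and a downstream promoter, which give proteins with different first residues.

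The stretches of 250 bases before the RefSeq starts of Runx1 and Runx3 are shown because these are the members whose signal differed between the genotypes, in opposite directions. They come from RefSeq on GRCm38.p6 and are printed in the direction of transcription. Capitals mark the Runx core TGTGGT and a core bound by Ikaros, TGGGAA, searched on both strands as these letters or their reverse complements ACCACA and TTCCCA. No match of one motif overlapped a match of the other in these windows. Of 32817 windows of this length 14% held at least 1 Runx core, 1.27% at least 2, and 21.6% at least 1 Ikaros core. The upstream window of Runx3 lies at chr4:135120395-135120644 on the plus strand and the downstream one at chr4:135152295-135152544, with 31900 bases between the starts. The upstream window of Runx1 lies at chr16:92826075-92826324 on the minus strand and the downstream one at chr16:92697330-92697579, with 128745 bases between the starts.
Runx3 upstream: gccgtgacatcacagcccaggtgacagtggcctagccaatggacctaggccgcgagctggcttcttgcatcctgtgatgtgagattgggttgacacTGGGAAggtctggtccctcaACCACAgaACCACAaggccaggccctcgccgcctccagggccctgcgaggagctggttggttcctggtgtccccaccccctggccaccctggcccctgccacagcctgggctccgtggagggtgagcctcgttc
Runx3 downstream: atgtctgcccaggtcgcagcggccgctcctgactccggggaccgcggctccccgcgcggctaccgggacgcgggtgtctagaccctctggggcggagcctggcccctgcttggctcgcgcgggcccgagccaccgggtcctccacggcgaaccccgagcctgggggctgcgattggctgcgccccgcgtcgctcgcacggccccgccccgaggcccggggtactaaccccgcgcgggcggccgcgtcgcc
Runx1 upstream: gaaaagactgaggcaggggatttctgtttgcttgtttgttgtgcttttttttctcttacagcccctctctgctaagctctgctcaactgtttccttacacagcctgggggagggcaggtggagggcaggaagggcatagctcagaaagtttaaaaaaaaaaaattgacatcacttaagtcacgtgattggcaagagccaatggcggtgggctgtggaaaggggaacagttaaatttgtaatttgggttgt
Runx1 downstream: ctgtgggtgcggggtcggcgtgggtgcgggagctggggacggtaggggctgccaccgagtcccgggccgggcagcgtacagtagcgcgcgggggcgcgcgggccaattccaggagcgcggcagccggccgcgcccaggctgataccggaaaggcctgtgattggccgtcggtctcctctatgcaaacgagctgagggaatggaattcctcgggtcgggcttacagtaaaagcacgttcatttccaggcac

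The upstream window of Runx3 held 2 Runx cores, whose first bases lie 134 and 126 bases before the start and which both read ACCACA. It also held 1 Ikaros core, 154 bases before the start. The downstream window of Runx3 and both windows of Runx1 held neither motif. These matches describe letters in the reference, and the array table does not say which start a probe set reports on, so no value below is set against a window.

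Before the results, 4 facts of the series bear on them. Ikzf1, whose product is the factor altered here, was lower in the IkL/L arrays: its brightest probe set, 1436312_at, stood at 63.7%, 64.5% and 61.7% of the WT signal in DN3, DN4 and DP cells (adjusted p = 0.0187, 0.0202 and 0.00979, limma). Its other probe set passed in DN4 cells (48.9% of WT, adjusted p = 0.008) and not in DN3 or DP cells. The stage labels matched their markers in WT cells. There the mean log2 signal of Il2ra, the interleukin-2 receptor chain of DN3 cells, was 10.72 in DN3 and 5.98 in DN4 cells. That of Cd8a was 7.46 in WT DN4 and 12.85 in WT DP cells. Of 8 DN3 markers 8 fell from DN3 to DN4 in WT and 5 in IkL/L cells (adjusted p under 0.05, limma, 1 probe set per gene). From DN4 to DP, 7 of them fell and 0 rose in WT, while 1 fell and 1 rose in IkL/L cells. Of 9 tested DP markers 9 rose at that step in WT and 8 in IkL/L cells. A set of 3 arrays stood apart: on the IkL/L replicate 2 arrays of all 3 stages the Y-linked gene Eif2s3y read 2.82 to 3.12, against 7.78 to 9.58 on the other 9 arrays, so results are also given without these 3. The labelling was done in 3 series with different RNA amounts, which the labels do not assign to arrays, so a labelling batch was not tested.

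All values below are log2 signals or differences of log2 signals. Array medians lay between 5.14 and 5.22, a signal below them may be mostly background, and levels of different probe sets are not compared. All 9 member probe sets had at least 2 arrays at or above the array median. A probe set was called at an adjusted p under 0.05 (limma, Benjamini-Hochberg over 45037 probe sets), and in these bulk samples fewer cells of a type and less RNA per cell cannot be told apart.

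**Figure D1:**
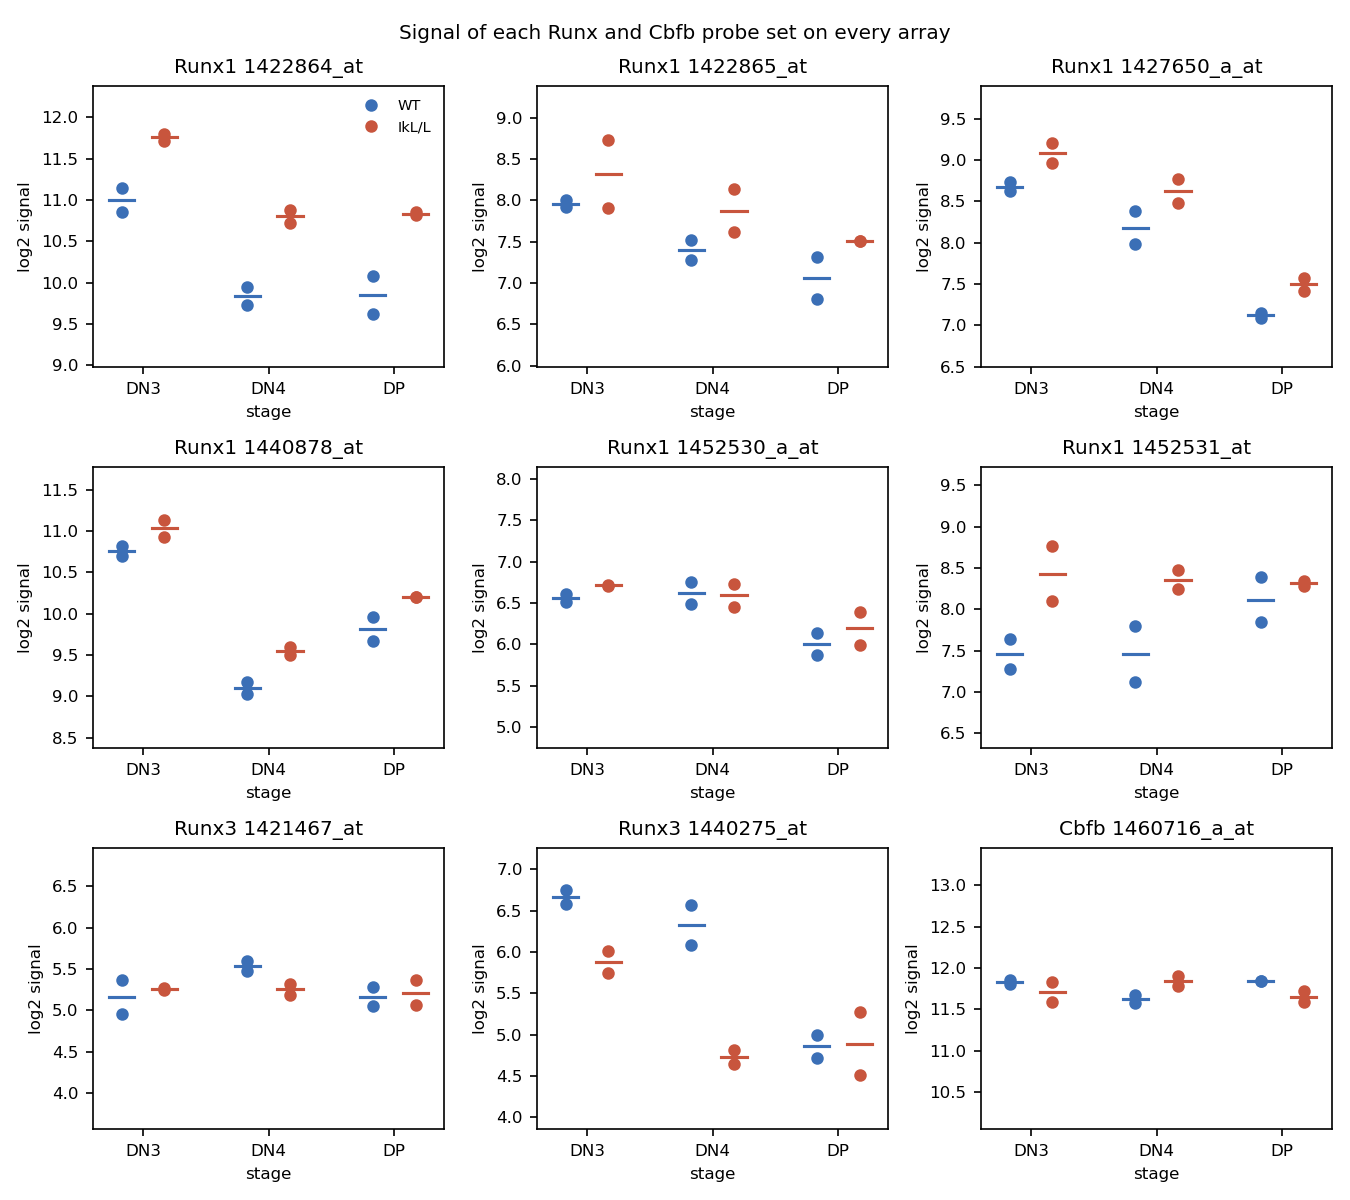
Log2 signal of each of the 9 Runx and Cbfb probe sets (vertical axes, each spanning the same height) on all 12 arrays by stage (horizontal axes). Points are arrays, lines are means of 2 arrays, blue is WT and red IkL/L; Runx1 1422864_at has no overlap between genotypes at any stage, and Runx3 1440275_at is high in the WT DN3 and DN4 arrays.

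Averaged over stages, 4 of the 6 Runx1 probe sets were called higher in IkL/L than in WT thymocytes, beside 5.04% of all probe sets called in either direction. Of these 4 calls only that of the brightest probe set held under all alternatives. From DN3 to DN4, 2 of the 6 were called lower in both genotypes, beside 2.69% of all probe sets called in WT and 1.22% in IkL/L cells. The brightest probe set, 1422864_at, read 10.85 and 11.14 in WT DN3, 9.73 and 9.95 in WT DN4, and 10.08 and 9.63 in WT DP cells. In IkL/L cells the same probe set read 11.80 and 11.72 at DN3, 10.72 and 10.88 at DN4, and 10.81 and 10.86 at DP. Every IkL/L array lay above both WT arrays of its stage, and the IkL/L DN4 and DP arrays lay close to the lower WT DN3 array.

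The IkL/L minus WT difference of 1422864_at was 0.97 ± 0.16 (SE, n = 2 and 2; 95% interval 0.60 to 1.33) in DN4 cells, a 1.95-fold higher signal (adjusted p = 0.0227). In DP cells it was 0.98 ± 0.16 (0.61 to 1.35), 1.97-fold higher (adjusted p = 0.0174). In DN3 cells it was 0.76 ± 0.16 (0.39 to 1.13), which did not pass over all probe sets (adjusted p = 0.0785) and passed in the fit of 1 probe set per gene (adjusted p = 0.0235). The size at the 3 stages was not shown to differ: the DN4 difference exceeded that in DN3 by 0.21 (-0.32 to 0.73, adjusted p = 0.811), and the DP difference that in DN4 by 0.01 (-0.51 to 0.54, adjusted p = 0.986).

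Averaged over the stages, 1422864_at was higher by 0.90 ± 0.09 (0.69 to 1.11) in IkL/L cells (adjusted p = 0.000611). That call held under all 22 alternatives, including without the 3 IkL/L replicate 2 arrays (0.88, adjusted p = 0.013). The calls within a stage rested on few arrays. The DN4 call was lost without any of the 4 DN4 arrays (adjusted p from 0.0853 to 0.177), after a second quantile normalization (0.0577) and without the 3 IkL/L replicate 2 arrays (0.154). The DP call was lost without WT DP replicate 2 (0.0766), IkL/L DP replicate 1 (0.103) or 2 (0.117), without the 3 IkL/L replicate 2 arrays (0.138) and with the DP arrays alone (0.13). In both genotypes 1422864_at had its highest mean at DN3. The mean of 8 DN3 markers was 7.46 and 7.68 in IkL/L DP cells against 6.57 and 6.76 in WT DP cells, but 9.22 and 9.35 against 10.28 and 10.35 in DN3 cells. In DP cells 4 of these 8 were called higher in IkL/L cells (limma, 1 probe set per gene) and 0 lower. They were Dtx1 (2.53), Ptcra (1.63), Notch1 (1.505) and Notch3 (0.83). The other 4 were not called: Hes1 (0.635) and Spib (0.39) lay above 0, Il2ra (-0.14) and Cdh1 (-0.12) below. The DP means of Spib, Il2ra and Cdh1 lay below the array medians in both genotypes. The part of stage make-up in the Runx1 result was not tested.

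The other 5 Runx1 probe sets were not all alike. Probe set 1427650_a_at read 8.74 and 8.62, 7.99 and 8.38, and 7.09 and 7.16 in WT DN3, DN4 and DP cells, and 9.20 and 8.96, 8.48 and 8.77, and 7.57 and 7.42 in IkL/L cells. Probe set 1440878_at read 10.69 and 10.82, 9.02 and 9.17, and 9.67 and 9.96 in WT cells, and 11.14 and 10.93, 9.60 and 9.50, and 10.20 and 10.20 in IkL/L cells. Like 1422864_at, these probe sets had both IkL/L arrays above both WT arrays at every stage. That pattern was found for 3.31% of all probe sets, and for 5.42% of those above the array median on all 12 arrays. Their differences averaged over stages were 0.41 ± 0.09 (adjusted p = 0.0365) for 1427650_a_at and 0.37 ± 0.07 (adjusted p = 0.0203) for 1440878_at, under the 0.90 of 1422864_at.

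Probe set 1452531_at had another course. It read 7.64 and 7.28 in WT DN3, 7.80 and 7.12 in WT DN4, and 8.39 and 7.84 in WT DP cells, against 8.10 and 8.77, 8.24 and 8.48, and 8.35 and 8.28 in IkL/L cells. The IkL/L minus WT difference was 0.97 in DN3 (adjusted p = 0.232) and 0.90 in DN4 cells (adjusted p = 0.134), and neither was called. In DP cells the difference was 0.20 (-0.44 to 0.84). Its difference averaged over stages was 0.69 ± 0.16 (adjusted p = 0.0449), and a change of that difference between stages was not called (DP minus DN3 -0.77, adjusted p = 0.742).

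The averaged calls of 1427650_a_at, 1440878_at and 1452531_at were lost in 11, 6 and 12 of 20 alternatives (adjusted p up to 0.111, 0.0755 and 0.207). Probe set 1422865_at ranged from 6.81 to 8.73 over the 12 arrays and was higher by 0.43 on average (0.07 to 0.78, adjusted p = 0.17). Probe set 1452530_a_at ranged from 5.87 to 6.75, with an averaged difference of 0.11 (-0.11 to 0.32, adjusted p = 0.59). All 6 Runx1 probe sets thus had an averaged difference above 0, of which 4 passed the test.

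For Runx3, the member of the CD8 lineage, the brighter probe set, 1440275_at, was called lower in IkL/L than in WT DN4 cells. It read 6.58 and 6.74 in WT DN3 and 6.09 and 6.56 in WT DN4 cells, and 4.72 and 4.99 in WT DP cells. In IkL/L cells it read 6.01 and 5.75 at DN3, 4.81 and 4.65 at DN4, and 4.51 and 5.27 at DP. The IkL/L arrays lay below both WT arrays in DN3 and DN4 cells and overlapped them in DP cells. The share of all probe sets with such a separation at a single stage was not counted. The IkL/L DN4 arrays, both WT DP arrays and IkL/L DP replicate 1 were below the array median, where signal may be mostly background. The sizes of differences and steps that use these arrays are therefore uncertain.

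The IkL/L minus WT difference of 1440275_at was -1.59 ± 0.25 (-2.15 to -1.04) in DN4 cells, 33.1% of the WT signal (adjusted p = 0.0148). In DN3 cells the difference was -0.79 ± 0.25 (-1.34 to -0.23), which did not pass (adjusted p = 0.273, and 0.0988 in the fit of 1 probe set per gene). In DP cells it was 0.03 ± 0.25 (-0.52 to 0.58, adjusted p = 0.991), a value whose sign changed when single DP arrays were left out. Averaged over stages it was -0.78 ± 0.14 (-1.10 to -0.47, adjusted p = 0.0128), and this call held under all 21 alternatives.

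The DN4 call of Runx3 was lost without WT DN4 replicate 2 (adjusted p = 0.137), IkL/L DN4 replicate 1 (0.0723) or 2 (0.127). It held without the 3 IkL/L replicate 2 arrays (-1.51, adjusted p = 0.0312). Whether the genotype difference itself changed from DN4 to DP cells was tested as an interaction: the change was 1.62 (0.84 to 2.40), with adjusted p = 0.148 over all probe sets and 0.0446 in the fit of 1 probe set per gene. The second Runx3 probe set, 1421467_at, ranged from 4.95 to 5.60, close to the array medians, and none of its differences was called. Its values in DN4 cells were 5.47 and 5.60 in WT and 5.33 and 5.19 in IkL/L cells, a difference of -0.28 (-0.64 to 0.08, adjusted p = 0.363). The Runx3 result therefore rests on 1 probe set.

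Cbfb, the partner of all Runx proteins, was not called in any comparison. Its probe set 1460716_a_at read 11.85 and 11.81 in WT DN3, 11.68 and 11.58 in WT DN4, and 11.85 and 11.84 in WT DP cells. In IkL/L cells it read 11.84 and 11.58, 11.78 and 11.91, and 11.59 and 11.72. All 12 arrays lay within 0.33 of each other. The genotype difference was -0.12 (-0.37 to 0.14) in DN3, 0.22 (-0.04 to 0.47) in DN4 and -0.19 (-0.45 to 0.06) in DP cells (adjusted p = 0.784, 0.316 and 0.649). Averaged over stages it was -0.03, and its interval from -0.18 to 0.12 leaves room for small differences in either direction. The change of the difference from DN4 to DP cells was -0.41 (-0.77 to -0.05, adjusted p = 0.366).

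Counted together, 0 of the 9 member probe sets were called between genotypes in DN3 cells, 2 in DN4, 1 in DP and 5 on average over stages. Of all probe sets 1.09%, 1.82%, 1.68% and 5.04% were called in these comparisons, and of those with 2 arrays at or above the array median 1.83%, 3.17%, 2.8% and 8.7%. In DN3 cells 4 members had an unadjusted p under 0.05 (limma), as had 9.86% of all probe sets. The 6 probe sets of Runx1 share a gene and are not independent. No member was called for a change of the genotype difference between stages, where 0.00666% (DN4 against DN3), 0.14% (DP against DN4) and 0.22% (DP against DN3) of all probe sets were, and 1, 2 and 1 of the 9 members had an unadjusted p under 0.05 (limma), beside 8.69%, 12.2% and 7.47% of all probe sets.

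**Figure D2:**
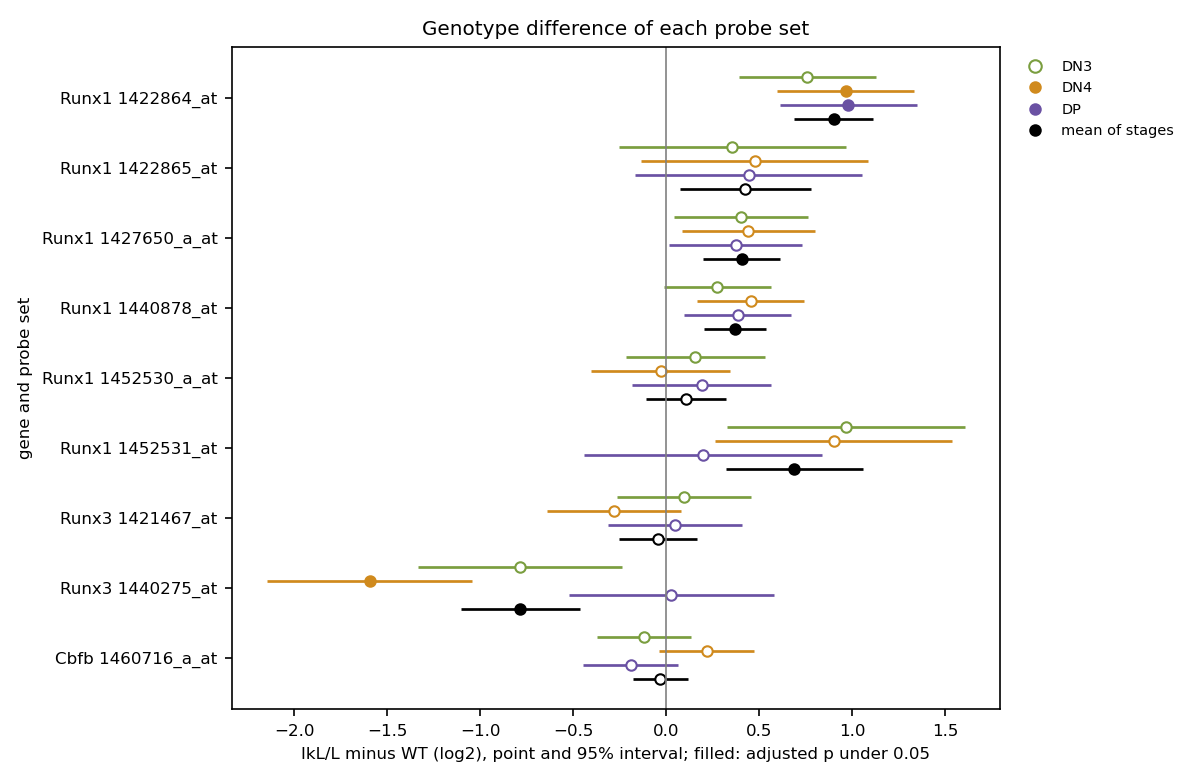
IkL/L minus WT difference in log2 signal (horizontal axis) for each Runx and Cbfb probe set (vertical axis) in DN3, DN4 and DP cells and averaged over stages. Points are estimates and bars 95% intervals from limma with 2 arrays a group, filled where adjusted p is under 0.05; Runx1 1422864_at lies between 0.76 and 0.98 at each stage, while Runx3 1440275_at is at -1.59 in DN4 and 0.03 in DP cells.

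Between stages, some Runx1 probe sets fell from DN3 to DN4, and they split at the step to DP cells. In WT cells 1422864_at fell by 1.16 from DN3 to DN4 (adjusted p = 0.00587) and 1440878_at fell by 1.66 (adjusted p = 0.000265). In IkL/L cells the same step was -0.96 (adjusted p = 0.0252) and -1.48 (adjusted p = 0.000772). These were the 2 of 9 members called at this step in each genotype, where 2.69% of all probe sets were called in WT and 1.22% in IkL/L cells. The steps of 1427650_a_at, -0.50 in WT (adjusted p = 0.167) and -0.46 in IkL/L cells (adjusted p = 0.299), did not pass.

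The WT step of 1422864_at lost its call without WT DN3 replicate 2 (adjusted p = 0.0539) or WT DN4 replicate 1 (0.0687). Its IkL/L step lost the call without any of the 4 IkL/L DN3 and DN4 arrays (0.0511 to 0.193), without the 3 replicate 2 arrays (0.2), with the replicate block (0.0505) and with the arrays of the step alone (0.199). The steps of 1440878_at held without each array in turn. With the IkL/L DN3 and DN4 arrays alone its IkL/L step did not pass (0.113).

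From DN4 to DP, 1440878_at rose by 0.72 in WT (adjusted p = 0.00188) and by 0.65 in IkL/L cells (adjusted p = 0.00486). Over the same step 1427650_a_at fell by 1.06 in WT (adjusted p = 0.00068) and by 1.13 in IkL/L cells (adjusted p = 0.00072), and 1452530_a_at fell by 0.62 in WT cells (adjusted p = 0.0166). For 1422864_at no change was called, with steps of 0.02 (-0.35 to 0.39) and 0.03 (-0.34 to 0.40). So probe sets of the same gene rose or fell between the same arrays, and which transcript each reports on was not tested.

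The rise of 1440878_at in IkL/L cells was not called without the 3 replicate 2 arrays (adjusted p = 0.0848). The fall of 1452530_a_at lost its call without WT DN4 replicate 2 (0.125) or WT DP replicate 2 (0.108). The calls of 1427650_a_at in both genotypes held under all 21 alternatives. Over the 12 arrays, Pearson's r between Runx1 probe sets ran from -0.18 (1452530_a_at with 1452531_at) to 0.848 (1427650_a_at with 1452530_a_at), a description of arrays that share stage and genotype.

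Runx3 fell at the step to DP in WT cells and was already low at DN4 in IkL/L cells. In WT cells 1440275_at changed by -0.34 from DN3 to DN4 (-0.89 to 0.21, adjusted p = 0.569) and fell by 1.47 from DN4 to DP (adjusted p = 0.0013), to 36.2% of the DN4 signal. That fall held under all 22 alternatives, but both WT DP arrays were below the array median, so its size is uncertain. In IkL/L cells the value from DN3 to DN4 was -1.15 (-1.70 to -0.60), with adjusted p = 0.0663 over all probe sets and 0.016 in the fit of 1 probe set per gene, and from DN4 to DP it was 0.16 (-0.39 to 0.71, adjusted p = 0.765). The signal fell by 1.81 from DN3 to DP in WT (adjusted p = 0.000421), and it fell by 0.99 in IkL/L cells (adjusted p = 0.0171).

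At the step from DN4 to DP, 4 of the 9 members were called in WT and 2 in IkL/L cells, beside 33.6% and 21.4% of all probe sets. Cbfb moved by at most 0.22 in any step and was not called. In order of mean level, Runx3 1440275_at ran from WT DN3 (6.66) over WT DN4 (6.32) and IkL/L DN3 (5.88) to IkL/L DP (4.89), WT DP (4.86) and IkL/L DN4 (4.73). Only the gap between IkL/L DN3 and IkL/L DP passed the test among neighbours in that order (0.99, adjusted p = 0.0171). For Runx1 1422864_at the order was IkL/L DN3 (11.76), WT DN3 (11.00), IkL/L DP (10.84), IkL/L DN4 (10.80), WT DP (9.86) and WT DN4 (9.84). Its one neighbouring gap that passed lay between IkL/L DN4 and WT DP (0.95, adjusted p = 0.00183).

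**Figure D3:**
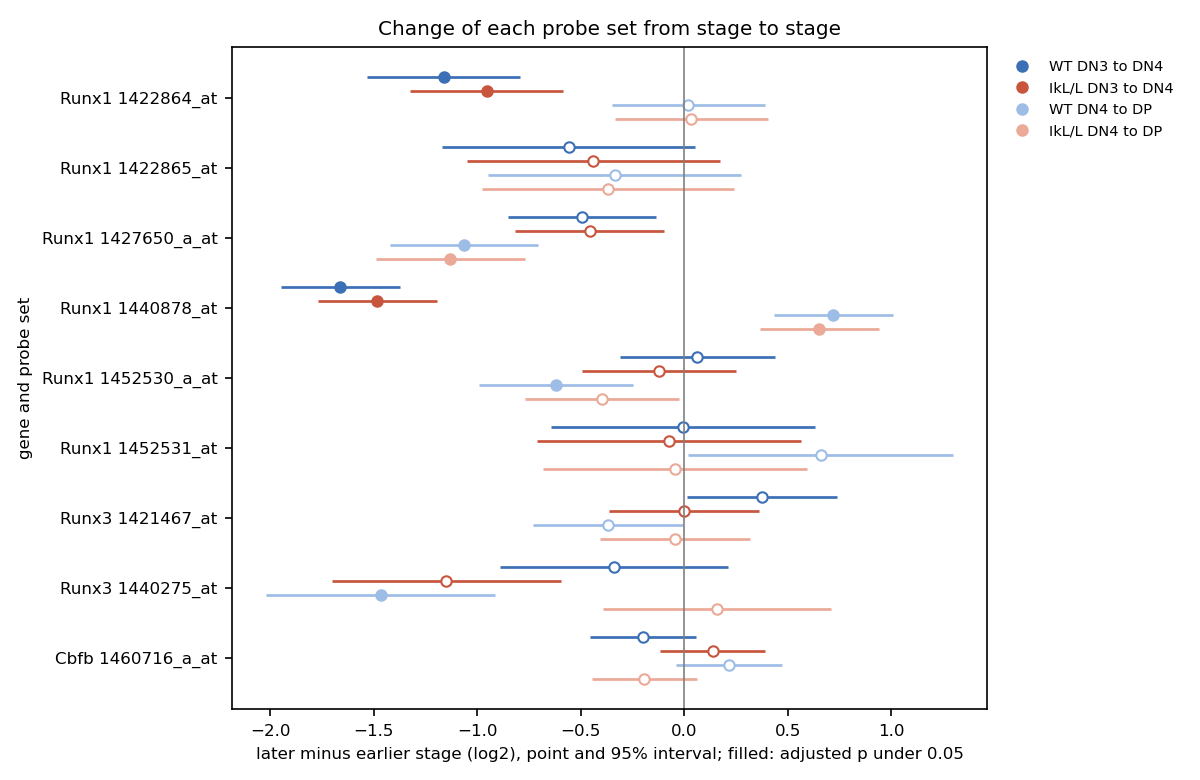
Change in log2 signal at the step to DN4 and at the step to DP (horizontal axis, later minus earlier stage) of each Runx and Cbfb probe set (vertical axis) in WT and IkL/L cells. Points are estimates and bars 95% intervals from limma with 2 arrays a group, filled where adjusted p is under 0.05; at the step to DP, Runx1 1440878_at rose and 1427650_a_at fell in both genotypes, and Runx3 1440275_at fell by 1.47 in WT cells.

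Genes listed as markers of mature T and innate cells also differed between the genotypes in DN4 cells. In WT DN4 cells the arrays gave 8 mature T cell markers a mean log2 signal of 7.14 and 7.52, and in IkL/L DN4 cells both gave 6.24. Of 7 tested genes of that list 0 rose and 3 fell: Cd69, an early activation marker (-3.06, adjusted p = 0.00287), Cd52, a surface glycoprotein of lymphocytes (-1.37, adjusted p = 0.0101), and Itgae, an integrin chain (-0.83, adjusted p = 0.0106). The IkL/L DN4 mean of Itgae, 5.03, lay below the array medians. Of the 9 genes listed, 3 also stand in the lists of Runx genes below. Cd52 also changed with stage, with WT means of 9.44 in DN4 and 12.40 in DP cells. The mean of 11 innate markers (of NK, innate lymphoid and gamma-delta T cells) was 6.26 and 6.46 in WT DN4 cells, against 5.81 and 5.90 in IkL/L DN4 cells. In DN3 cells the means were 7.04 and 7.16 in WT against 6.41 and 6.52 in IkL/L cells for the mature list, and 6.18 and 6.24 against 5.87 and 6.16 for the innate list.

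Of 7 tested genes of the innate list 3 fell in DN4 cells: Nkg7, a granule protein gene (-2.29, adjusted p = 8.5e-05), the kinase gene Blk (-1.46, adjusted p = 0.00547) and Sox13, a factor of gamma-delta T cells (-1.06, adjusted p = 0.0123). The other 4 were not called: Gzma (0.08), Tbx21 (0.26) and Zbtb16 (0.03) lay above 0 and Fcer1g (-0.24) below. Over all tested genes 4.28% were called in DN3, 6.89% in DN4 and 5.98% in DP cells. In DN3 cells 2 of the 7 fell, Nkg7 (-1.74, adjusted p = 0.00059) and Blk (-1.73, adjusted p = 0.00174), and 0 rose. There Gzma (0.26), Tbx21 (0.39) and Zbtb16 (0.20) lay above 0, and Sox13 (-0.03) and Fcer1g (-0.11) below, all uncalled. The WT mean of Nkg7 was 10.21 in DN3 and 7.72 in DN4 cells. Defining NK genes of this list, Ncr1, Klrd1 and Xcl1, had group means between 3.33 and 4.24, below the array medians. In DP cells, where no Runx3 difference was called, the mature T cell means were 6.75 and 6.79 in WT and 6.38 and 7.17 in IkL/L cells, and those of the innate list 5.05 and 5.16 in WT and 5.30 and 5.50 in IkL/L cells. Of the 7 tested innate genes 2 rose and 0 fell in DP cells: Gzma, a granzyme gene (2.11, adjusted p = 3.7e-05), and Tbx21, which encodes the factor T-bet (0.85, adjusted p = 0.0158). Of 9 tested DP markers 0 rose and 2 fell in DN4 cells: Cd8b1 (-1.65, adjusted p = 0.00109) and Ccr9 (-1.53, adjusted p = 0.00017). The part of other cells and of stage make-up in the Runx3 result was not tested. Over all 12 arrays the B cell mean ran from 4.98 to 5.35, the dendritic mean from 5.81 to 6.55 and the stromal mean from 4.74 to 5.08. The myeloid mean was 6.07 on 1 IkL/L DN3 array and at most 5.16 on all others.

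The other genes of the pathway were taken from 3 lists, tested at 1 probe set per gene (11648 genes). Over all these genes 4.28% were called between genotypes in DN3, 6.89% in DN4, 5.98% in DP cells and 15.5% on average. Of 21 tested cofactors and regulators of Runx proteins 1 rose and 0 fell in DN3, 1 and 0 in DN4, 2 and 0 in DP, and 3 and 2 on average. The list's median difference was -0.09 in DN3, 0.22 in DN4 and -0.04 in DP cells, beside -0.04, -0.002 and 0.03 over all genes. Averaged over stages it was 0.05, beside -0.01. Differences in DN4 cells depended on the normalization. After a second quantile normalization that of Cbfb went from 0.22 to 0.02 and that of Runx1 1422864_at from 0.97 to 0.81. The list median was not computed under that setting.

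Yap1, the Hippo pathway coactivator, was the cofactor that rose at every stage: at DN3 the WT mean was 5.46 and the IkL/L mean 6.67 (1.20 ± 0.19, adjusted p = 0.00249), at DN4 they were 5.13 and 6.09 (0.95, adjusted p = 0.011) and at DP 4.77 and 6.59 (1.82, adjusted p = 0.000101). The WT means at DN4 and DP lay below the array medians. Cdk6, a cyclin-dependent kinase, rose in DP cells from 9.89 to 10.81 (0.92 ± 0.15, adjusted p = 0.00302). Averaged over stages, the kinase gene Hipk2 rose by 0.55 (adjusted p = 0.0158). Groucho corepressors, such as the product of Tle4, bind Runx proteins, and Tle4 fell by 0.52 (adjusted p = 0.0272). Tle5, a gene of the same family but not counted here as such a corepressor, fell by 0.57 (adjusted p = 0.025). Tle1, Tle2 and Tle3 did not pass, with averaged values of -0.21, -0.18 and -0.03.

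Of 16 tested genes with described Runx-bound elements 0 rose and 2 fell in DN3, 1 rose and 2 fell in DN4, 1 rose and 1 fell in DP cells, and 2 rose and 4 fell on average. Ifng, the interferon gamma gene, went from 7.03 to 5.19 in DN3 cells (-1.85 ± 0.16, adjusted p = 3.1e-05). Itgae fell by 0.91 in DN3 (adjusted p = 0.00668) and by 0.83 in DN4 cells (adjusted p = 0.0106). Cd8b1, the CD8 beta chain, went from 9.47 to 7.82 in DN4 cells (-1.65 ± 0.22, adjusted p = 0.00109), and Cd8a fell by 0.45 on average (adjusted p = 0.0416).

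Prf1, the perforin gene, fell in DP cells from 5.91 to 5.12 (-0.79, adjusted p = 0.0201), while Ptcra, the pre-T-cell receptor alpha chain, rose there from 8.41 to 10.04 (1.63 ± 0.19, adjusted p = 0.00027). Satb1, a chromatin organizer, rose in DN4 cells by 0.58 (adjusted p = 0.0341). Cd4, which Runx proteins silence in DN cells, did not pass at any stage: its means were 5.74 in WT and 6.05 in IkL/L DN3 cells, 6.27 and 6.51 in DN4, and 11.03 and 10.85 in DP cells. Zbtb7b, silenced by Runx3, had means between 5.96 and 6.24 in all 6 groups and did not pass either.

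Of 13 factors that act in the choice between the CD4 and CD8 lineages 1 rose and 2 fell in DN3, 1 rose and 1 fell in DN4, 0 rose and 1 fell in DP cells, and 1 rose and 3 fell on average. Ikzf1 itself is the 1 that fell at every stage. Id2, an inhibitor of E proteins, went from 8.44 to 6.69 in DN3 cells (-1.74 ± 0.36, adjusted p = 0.0165). Ikzf3, which encodes the Ikaros relative Aiolos, rose by 1.41 in DN3 (adjusted p = 0.000258) and by 0.70 in DN4 cells (adjusted p = 0.0226). Socs1, a cytokine signalling inhibitor, fell by 0.43 on average (adjusted p = 0.0139). Gata3, Tox and Myb did not pass, with averaged values of 0.05, 0.00 and 0.19.

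At the first step, to DN4, 9.25% of all genes were called in WT and 4.4% in IkL/L cells, and at the step to DP 57% and 45.5%. Of the cofactors 0 rose and 5 fell from DN3 to DN4 in WT, and 0 rose and 1 fell in IkL/L cells; from DN4 to DP 9 rose and 3 fell in WT, and 7 rose and 4 fell in IkL/L cells. Of the genes with Runx-bound elements 9 rose and 4 fell from DN4 to DP in WT, and 8 rose and 1 fell in IkL/L cells.

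**Figure D4:**
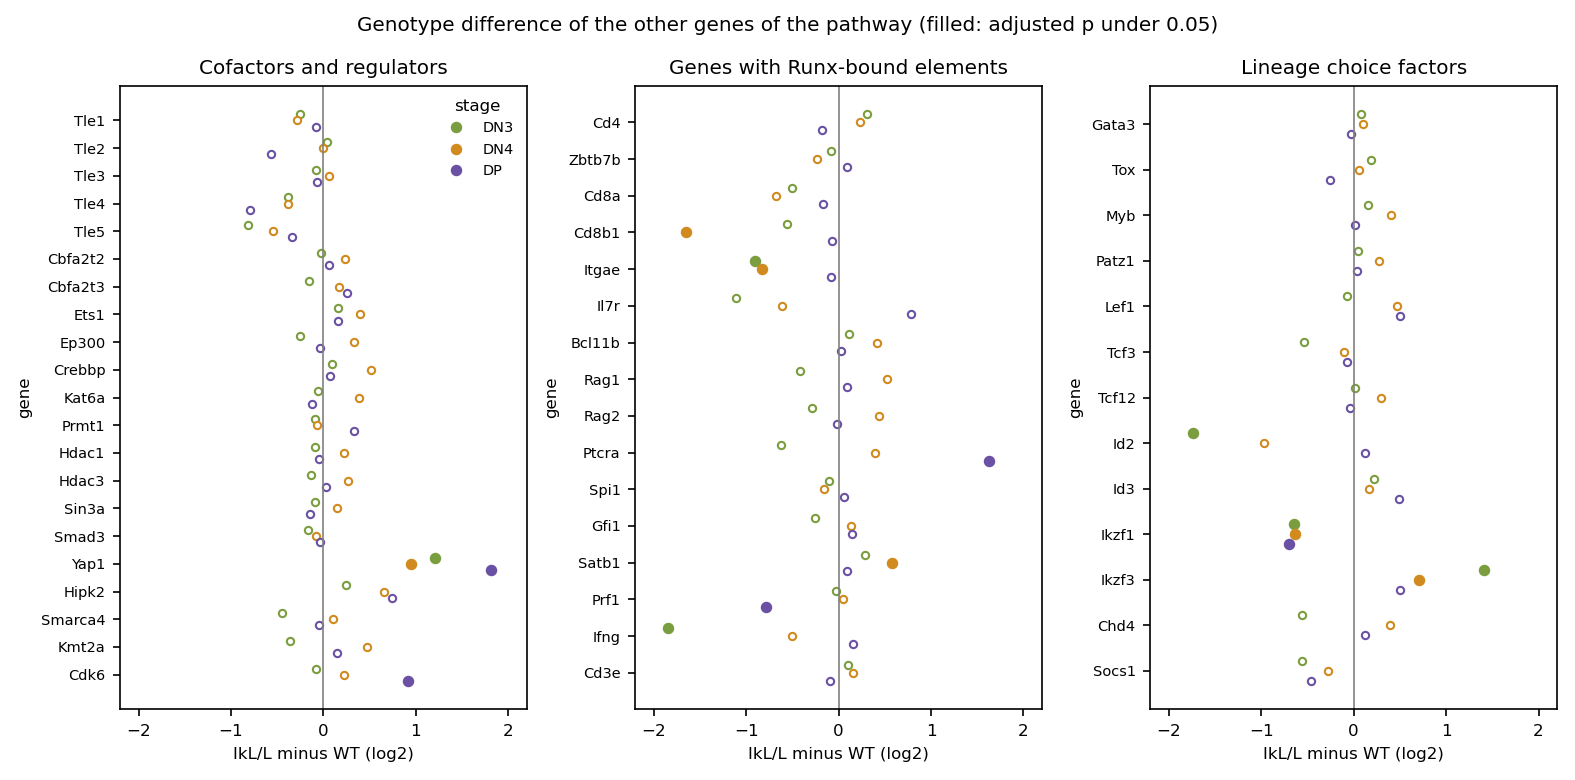
IkL/L minus WT difference in log2 signal (horizontal axes) of each tested gene (vertical axes) of 3 lists: Runx cofactors and regulators, genes with described Runx-bound elements in T cells, and lineage choice factors. Each point is 1 stage, large and filled where adjusted p is under 0.05; Yap1 is higher at all 3 stages, Cd8b1 is at -1.65 in DN4 cells, and most other points are open.

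The genes most like each member over the 12 arrays were named by Pearson's r with its brightest probe set, as a description of arrays that share stage and genotype. For Runx1 they were Dio2 (r = 0.933), Slc5a9 (0.929), Ifih1 (0.928) and Rhoj (0.928). Slc5a9 had its highest mean in IkL/L DN3 cells (9.46), as Runx1 had, and its lowest in WT DP cells (7.36). For Runx3 they were Capg (0.956), Ak7 (0.953), Pparg (0.951) and Trim46 (0.95), and Capg ran from 6.38 in WT DN3 to 4.65 in WT DP cells. For Cbfb, whose arrays spanned only 0.33, they were Dr1 (0.857), Arih1 (0.852), Trrap (0.839) and G3bp2 (0.83).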

How the data were processed

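RNA was labelled by a 2-cycle biotin protocol per the labels, hybridised to Affymetrix arrays and processed by the authors with RMA per the submitters' processing notes (version not given). What was deposited by the authors is a table of log2 signals with a row per probe set, from 2.68 to 14.7. Whether all arrays were normalized together is not stated. Quantile normalization makes signals relative to the rest of the array, and arrays have no read depth, so precision depends on how many arrays there are.

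Of 45099 probe sets, 62 controls were left out. Symbols came from the platform annotation: 34945 probe sets had 1 symbol, 932 several and 9160 none. Through 34754 gene IDs held by the reference, 0 symbols changed. The test was limma's moderated test (limma 3.58.1, R 4.3.3), with 1 mean per group over all 12 arrays (6 residual and 3.48 prior degrees of freedom) and Benjamini-Hochberg adjustment over all 45037 probe sets. Lists used the brightest probe set of each gene, if 2 arrays or more reached the array median (11648 genes). Named genes were all member probe sets, the 4 genes of highest r per member and up to 6 called genes per list and genotype comparison; other genes given beside them were chosen after their values were seen. In simulated data at this size, 85% or more of probe sets changed by 1 on the log2 scale were recovered at each stage. The simulation drew independent normal noise at the moderated spread of each probe set, with no batch or mouse effect. It therefore does not give the power in the real data, which may be lower. The members and lists were chosen with earlier results of these data known.

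Replicate numbers gave no constant pairing of the genotypes: deviations of same-numbered arrays correlated at -0.496, -0.34 and 0.25 in DN3, DN4 and DP cells. The negative values mean that arrays of opposite number deviated alike in DN3 and DN4 cells, and the reason was not tested. Alternatives were brightness filters, other normalizations, priors and weights, the replicate block, each array left out, the 3 IkL/L replicate 2 arrays left out, and 1 value per gene.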

Additional observations from a re-analysis of the deposited data

How the results depend on the processing

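With 2 arrays a group, single arrays decided several counts of called members. Leaving out each array in turn gave 0 to 1 called members in DN3 cells, 0 to 2 in DN4, 0 to 1 in DP and 2 to 5 on average over stages, 1 to 2 for the WT step and 1 to 3 for the IkL/L step from DN3 to DN4. Without the 3 IkL/L replicate 2 arrays there were 1 in DN4, 0 in DP, 3 on average, and 1 at each IkL/L step. The trend and robust prior gave 1 in DN3 cells. The filter at the 75th percentile gave 1 in DN4 cells, 2 for the WT step to DP, and 3 called list genes each in DN3 and DP cells (6 and 5 otherwise). A second quantile normalization gave 1 in DN4 cells. The arrays of the contrast alone gave 0 in DP cells and 0 for the IkL/L step from DN3 to DN4. A minimum difference of 1 gave 1 in DN4, 0 in DP, 0 on average, 2 for the WT step to DP, and 1 at each IkL/L step.

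The replicate block gave 3 on average and 1 for the IkL/L step from DN3 to DN4. A block with the IkL/L numbers crossed, added after the data were seen, gave 2 in DN3 and 4 in DN4 cells. With it Runx3 1440275_at had adjusted p = 0.0296 in DN3 and 0.000374 in DN4 cells (limma). Runx1 1422864_at had 0.0576 and 0.00697. The crossing follows the negative correlations seen in these same arrays, so its lower p values are not further support for any member. The share of all probe sets called with the crossed block was not counted. The Cbfb difference in DN3 cells ran from -0.25 to 0.0080 without single arrays, and turned to 0.0080 without the 3 IkL/L replicate 2 arrays or IkL/L DN3 replicate 2. That of Runx3 1440275_at in DP cells ran from -0.35 to 0.41, and turned to -0.35 without the 3 arrays or IkL/L DP replicate 2, and to -0.11 without WT DP replicate 1. These reversed values were not called under any setting. Fits with 1 value per gene give no count of member probe sets. The cause of these changes was not tested.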
